A study of Rattus norvegicus with 18 samples.

Results

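Cyclins, cyclin-dependent kinases (CDKs) and CDK inhibitors were described in rat cortical collecting ducts 3 h after lipopolysaccharide (LPS). Members were chosen by symbol, as names beginning with Ccn, a letter and a digit, names made of Cdk and a number alone, and names beginning with Cdkn1 or Cdkn2. The rule found 39 genes among the 32883 of the deposited table. It also took in Ccnb1ip1, Cdkn2aip and Cdkn2aipnl, which encode neither a cyclin nor a CDK inhibitor, and it left out cyclins without a digit such as Ccnc and Ccnh, which are given below with the other partners. Of the 39 members, 32 averaged 1 TPM or more across the libraries (TPM is a transcript level corrected for length and brought to the same total in every library) and were tested, and 7 were below that level.

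The ducts were dissected from kidneys of male Sprague-Dawley rats given LPS, the bacterial cell wall component, or normal saline (Vehicle) into the peritoneum 3 h earlier. The sources used here give neither the dose of LPS nor the age of the rats. Each of the 2 groups had 3 numbered samples, and each numbered sample had 3 libraries made from amplified polyA cDNA. The labels' protocol calls the groups paired, but the labels do not tie a numbered sample to its own animal, nor do they say what joins a pair. The p-values therefore cover only the spread from sample to sample, which may be technical.

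Cyclins are regulatory subunits that switch on CDKs, and the D-type and E-type cyclins with Cdk4, Cdk6 and Cdk2 carry a cell from G1 into DNA synthesis by phosphorylating the retinoblastoma proteins and freeing E2F factors. Cyclins A and B with Cdk2 and Cdk1 drive DNA synthesis and mitosis. Inhibitors of the Cip/Kip family (Cdkn1a, Cdkn1b, Cdkn1c) bind several cyclin and CDK pairs, and those of the INK4 family (Cdkn2a, Cdkn2b, Cdkn2c) bind Cdk4 and Cdk6. Another branch of the same families (Cdk7, Cdk9, Cdk12, Cdk13, Cdk19 and cyclins such as Ccnt1 and Ccnt2) acts on RNA polymerase II. Adult collecting duct cells divide rarely, and several CDKs also work in cells that are not dividing.

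Libraries listed 11399 to 12704 genes at 1 TPM or more, and the sequencing depth is unknown because TPM keeps no read number. The defining transcripts of collecting duct cells were abundant: Aqp2, the water channel of principal cells, had a Vehicle mean of 5961 ± 551 TPM against 4012 ± 1098 TPM with LPS (SD, n = 3). Summed markers of macrophages and monocytes ran from 126 to 261 TPM in the Vehicle samples and 214 to 449 TPM in the LPS samples, with 5 of 10 tested markers called higher and 1 lower. Neutrophil markers summed to 0.0933 to 0.390 TPM in the Vehicle samples and 2.11 to 78.2 TPM in the LPS samples, and 3 of the 6 were under 1 TPM in every sample. The upper value rests on library 3 of LPS 3, at 219 TPM, while every other library was at 14.3 TPM or less. S100a8 and S100a9 passed the filter through LPS alone, so no call is given for them. Endothelial markers summed to 20.8 to 99.9 TPM in the Vehicle samples and 35.1 to 91.8 TPM in the LPS samples, with Egfl7 called lower and Esam higher, while Flt1 (a Vehicle mean of 0.543 ± 0.345 TPM against 2.62 ± 0.774 TPM with LPS) passed the filter through LPS alone. Lymphocyte markers summed to 4.96 to 9.11 TPM in the Vehicle samples and 7.71 to 10.4 TPM in the LPS samples, and Gzmb (a Vehicle mean of 0.0489 ± 0.0425 TPM against 2.16 ± 1.34 TPM with LPS) likewise passed through LPS alone. Thick ascending limb markers summed to 154 to 184 TPM in the Vehicle samples and 152 to 335 TPM in the LPS samples, with 1 of 6 tested markers, Ptger3, called higher. Library 1 of LPS 2 summed to 572 TPM and every other library to 239 TPM or less. Within this list Cldn19 had a Vehicle mean of 91.6 TPM and Slc12a1 of 0.369 TPM. Only 1 fibroblast and mural marker, Dcn, was tested, and it was not called. Their sums were 5.14 to 10.97 TPM in the Vehicle samples and 1.74 to 7.51 TPM in the LPS samples. None of the 7 tested proximal tubule markers was called, with sums of 29.03 to 138 TPM in the Vehicle samples and 22.1 to 122 TPM in the LPS samples. Markers of the connecting and distal convoluted tubule summed to 5338 TPM in Vehicle 1 and to 55.6 to 328 TPM in the other samples, with 3 of 5 tested markers called lower (Trpm6 passed the filter through Vehicle alone) and Pvalb at 0 throughout. Principal cell markers summed to 16749.8 to 18316 TPM in the Vehicle samples and 9498 to 13131 TPM in the LPS samples, with 6 of 10 called lower. Intercalated cell markers summed to 8714 to 9211 TPM in the Vehicle samples and 5955 to 8024 TPM in the LPS samples, with 3 of 10 called lower. The part of other cell types in the results below was not tested. In these bulk samples fewer cells of a type and less RNA per cell cannot be told apart. On the first principal component LPS 1 lay between the Vehicle samples and the other LPS samples.

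In saline-treated ducts the most abundant member was Cdk4, the G1 kinase, at 191 ± 7.803 TPM (SD, n = 3), and its lowest sample lay above the highest sample of every other member. TPM is a level per transcript length, so genes can be set beside each other. Next came Ccnd3 at 99.7 ± 6.51 TPM, Cdk9 at 96.2 ± 4.14 TPM, Cdk16 at 85.6 ± 7.72 TPM, Ccng1 at 77.9 ± 10.7 TPM, Ccng2 at 71.7 ± 9.66 TPM and Ccnd1 at 66.9 ± 38.7 TPM. Neighbours in this run from Ccnd3 to Ccnd1 overlapped in their sample values, so their order is not resolved. Mitotic members were lower, with Cdk1 at 33.4 TPM, Ccnb1 at 19.2 TPM and Ccna2 at 13.6 TPM as Vehicle means. Inhibitors had Vehicle means of 13.1 TPM for Cdkn2c, 6.73 TPM for Cdkn1b and 2.43 TPM for Cdkn1a. In LPS Cdk4 was still first in the order, and Cdkn1a moved from place 29 of 39 to place 19.

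**Figure D1:**
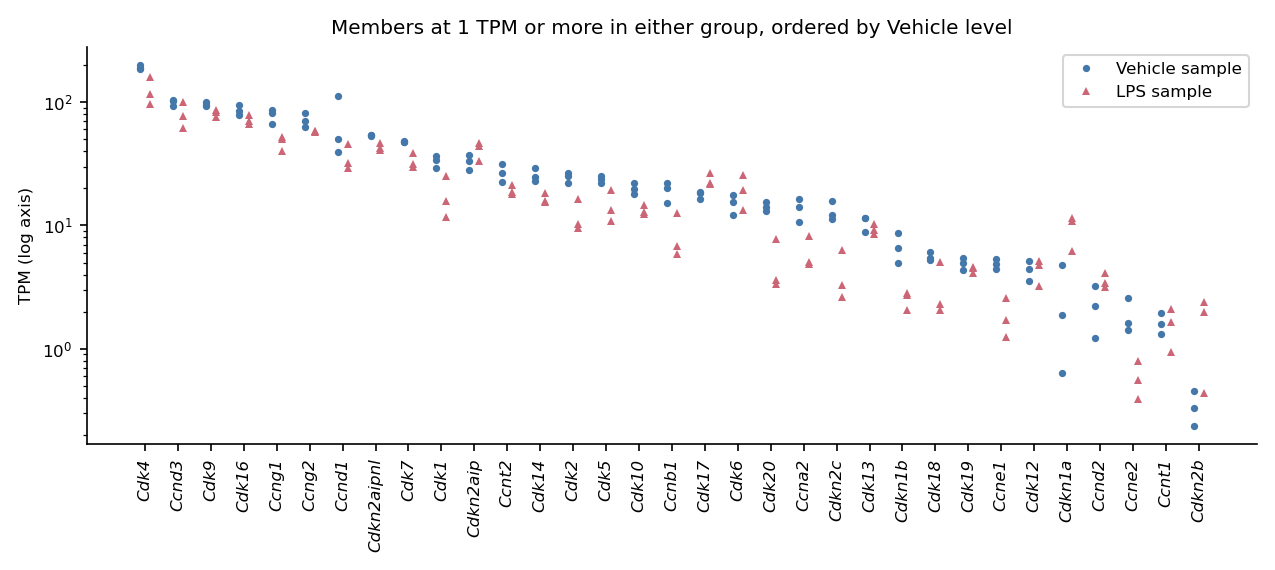
TPM (vertical, log axis) of each member with a group mean of at least 1 TPM, ordered by Vehicle level; circles are the 3 Vehicle samples and triangles the 3 LPS samples, each a mean of 3 libraries. Cdk4 is highest in both groups, and for Cdkn1a all LPS samples (6.18 to 11.5 TPM) lie above all Vehicle samples (0.640 to 4.77 TPM).

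After LPS, 1 tested member was called higher and 12 were called lower, where called means an adjusted p under 0.05 in a limma fit of log2(TPM + 1) over all 12393 tested genes with the sample number as a block. Cdkn1a was the member that rose, and those that fell were Ccnd1, Ccne1, Ccna2, Ccnb1, Ccng1, Cdk1, Cdk2, Cdk4, Cdk5, Cdk20, Cdkn1b and Cdkn2c. Among all tested genes 22.2% were called lower and 7.17% higher, so 12 of 32 lower (37.5%) and 1 of 32 higher (3.125%) are to be read against those shares. The median log2 change was -0.53 over the tested members and -0.38 over all tested genes, and 18 of the 32 members lay below the latter. The sample values of the groups did not overlap for 21 members lower in LPS and 2 higher, against 47.1% and 9.82% of all tested genes. Ccne2, among the 21, passed the filter through Vehicle alone.

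Since the whole distribution was shifted down, a change near the median depends on how libraries are scaled. When every library was divided by the median of its ratios to a common reference (median-ratio scaling), the median over all tested genes moved to -0.020, and 3.71% of them were called lower and 6.62% higher. Lower members were then Ccnb1, Cdk20 and Cdkn2c, and higher members Cdkn1a and Cdk17. Quantile normalization, with a median of -0.12, 4.67% of genes lower and 6.53% higher, called those 5 members too. By limma no member was called in 3 other fits, and the counts at an unadjusted p under 0.05 are given beside the shares of all genes in the same fit. Without replicate 3 they were 1 higher and 8 lower of 32 members (5.95% and 11.8% of genes). When the median library stood for a sample they were 1 and 17 (8.22% and 33.6%). Without a filter on low values they were 2 and 18 of 38 members (5.83% and 22.6%), including Cdkn2b higher and Ccna1 lower. Without replicate 2 Cdkn1a alone was called, with 1 and 11 unadjusted (7.1% and 18.3%).

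**Figure D2:**
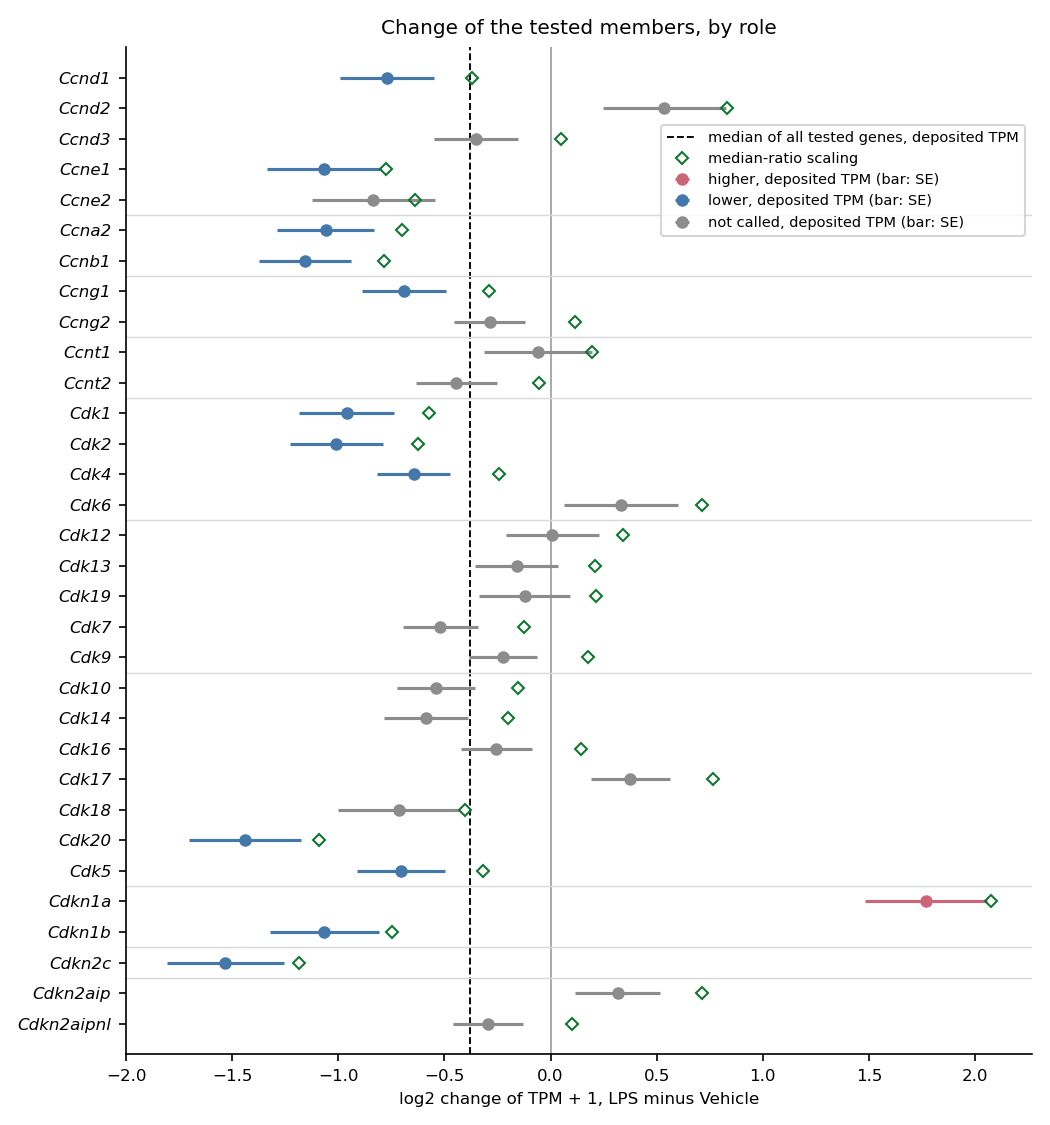
Log2 change of TPM + 1, LPS minus Vehicle (horizontal), for the 32 tested members grouped by role. Filled circles with SE bars are the fit of the deposited TPM (red higher, blue lower, grey not called), open diamonds the same after median-ratio scaling, and the dashed line the median of all tested genes at -0.38; diamonds lie to the right of the circles, and those of Cdkn1a, Cdkn2c and Cdk20 stay farthest from 0.

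The rise of Cdkn1a was the largest change of any tested member. Cdkn1a encodes p21, the Cip/Kip inhibitor that stress signals induce to hold cells in G1. It stood at 0.640, 4.77 and 1.87 TPM in Vehicle 1, 2 and 3 and 6.18, 10.8 and 11.5 TPM in LPS 1, 2 and 3. All LPS samples were above all Vehicle samples, and Vehicle 2 was the highest of the Vehicle group. The gene rose by 1.77 in log2 units (SE 0.287, adjusted p = 0.00999 by limma), and it was higher in 3 of 3 pairs. With median-ratio scaling the change was 2.07 (limma adjusted p = 0.0239), and with quantile normalization 2.12 (limma adjusted p = 0.0233). Without replicate 3 the log2 change was 1.59 with limma adjusted p = 0.258, and with the median of the libraries 1.77 with adjusted p = 0.0731.

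Cdkn1b, of the same family, fell. It encodes p27, which keeps resting cells out of the cycle, and stood at 4.99, 6.57 and 8.64 TPM in Vehicle and 2.85, 2.06 and 2.75 TPM in LPS, with no overlap between the groups. It fell by 1.07 in log2 units (SE 0.257, adjusted p = 0.0279 by limma), or -0.75 (limma adjusted p = 0.0708) after median-ratio scaling and -0.69 (limma adjusted p = 0.0768) after quantile normalization, without a call in either. Cdkn1c, which encodes p57, was below the filter at 0.667, 0.603 and 1.06 TPM in Vehicle and 0.327, 0.603 and 0.783 TPM in LPS, and its groups overlapped. Summed over the family, Cip/Kip TPM came to 9.94 ± 3.16 TPM without and 12.6 ± 2.95 TPM with LPS (SD, n = 3), with overlapping samples. The make-up of that sum differed: Cdkn1a was 10.2%, 39.9% and 16.1% in Vehicle 1, 2 and 3 and 66.01%, 80.2% and 76.6% in LPS 1, 2 and 3. Cdkn1b was 79.3%, 55.02% and 74.7% in Vehicle 1, 2 and 3 and 30.5%, 15.3% and 18.2% in LPS 1, 2 and 3. These shares did not overlap between groups, and a factor applied to a whole sample cancels in them. They are a description, since an exact permutation test of 3 against 3 that ignores the pairs cannot go below p = 0.1. Within pairs the floor is higher still.

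**Figure D3:**
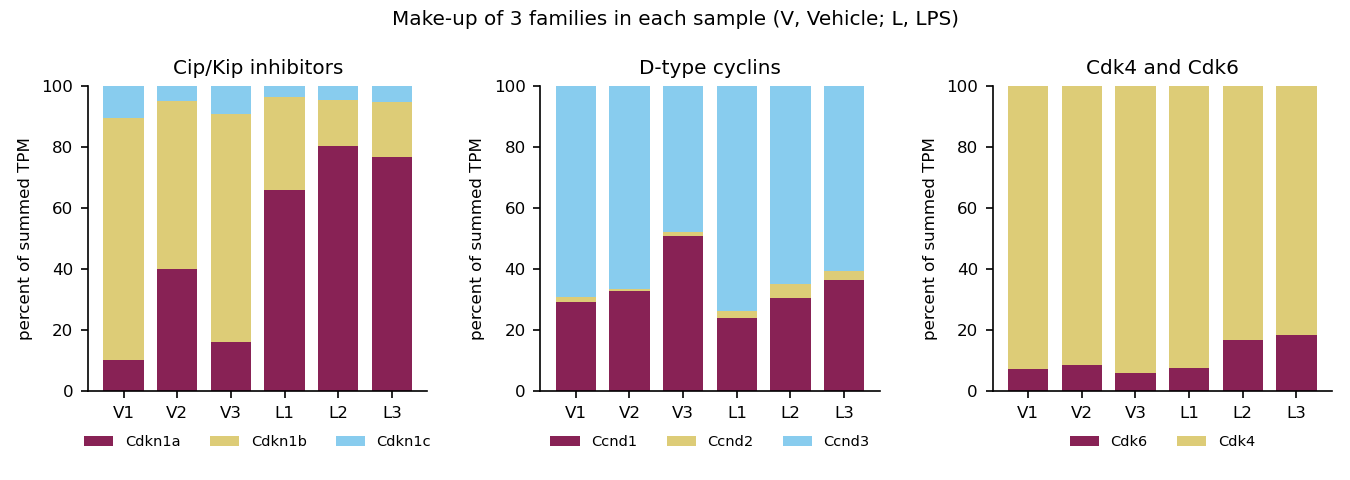
Share of the summed TPM (vertical, percent) taken by each Cip/Kip inhibitor, each D-type cyclin, and Cdk4 and Cdk6, in each of the 6 samples. Cdkn1a makes up 66.0% or more of the Cip/Kip sum in every LPS sample and 39.9% or less in every Vehicle sample, while the D-type cyclin shares of the groups overlap for Ccnd1 and Ccnd3.

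INK4 inhibitors differed among themselves. Cdkn2c encodes p18, an inhibitor of Cdk4 and Cdk6, and stood at 12.1, 11.3 and 15.9 TPM in Vehicle 1, 2 and 3 and 6.33, 2.61 and 3.303 TPM in LPS 1, 2 and 3. Every LPS sample was below every Vehicle sample, with LPS 1 the highest of the LPS group. The gene fell by 1.53 in log2 units (SE 0.275, adjusted p = 0.0137 by limma), the largest fall among the tested members, and it kept its call at -1.19 (limma adjusted p = 0.0429) after median-ratio scaling and -1.15 (limma adjusted p = 0.0421) after quantile normalization. Cdkn2b, which encodes p15, missed the filter by a small margin and was not tested. Its values were 0.333, 0.237 and 0.453 TPM in Vehicle and 0.440, 1.99 and 2.42 TPM in LPS, so LPS 2 and LPS 3 were above every Vehicle sample and LPS 1 was within the Vehicle range. In the fit without a filter its log2 change was 0.87 with limma adjusted p = 0.151. Cdkn2a was listed at 0 in all 18 libraries.

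Of the genes of S phase and mitosis, Ccnb1, Ccna2 and Cdk1 fell after LPS. Ccnb1, the mitotic cyclin B1, stood at 22.2, 15.3 and 19.9 TPM in Vehicle 1, 2 and 3 and 12.6, 5.85 and 6.78 TPM in LPS 1, 2 and 3, and the groups did not overlap. It fell by 1.16 in log2 units (SE 0.217, adjusted p = 0.0153 by limma), and was still called with median-ratio scaling at -0.79 (limma adjusted p = 0.0411) and with quantile normalization at -0.79 (limma adjusted p = 0.0384). Ccna2, the S-phase and G2 cyclin, was at 14.03, 10.6 and 16.3 TPM in Vehicle and 8.19, 4.86 and 5.05 TPM in LPS, again without overlap, and fell by 1.06 in log2 units (SE 0.228, adjusted p = 0.0219 by limma). Cdk1, the kinase that both cyclins activate, was at 34.2, 29.2 and 36.8 TPM in Vehicle and 25.2, 11.6 and 15.8 TPM in LPS and fell by 0.96 in log2 units (SE 0.224, adjusted p = 0.0258 by limma). Ccna2 and Cdk1 lost their call under scaling, at -0.699 (limma adjusted p = 0.0572) and -0.57 (limma adjusted p = 0.0843) with median-ratio scaling and -0.68 (limma adjusted p = 0.0565) and -0.64 (limma adjusted p = 0.0717) with quantile normalization. Library 2 was the lowest of LPS 2 for Ccnb1 (4.53 TPM), Ccna2 (3.81 TPM) and Cdk1 (7.77 TPM), and also for the proliferation markers Top2a (1.65 TPM) and Mki67 (0.750 TPM), and library 2 of LPS 1 was the lowest of that sample for all 5 genes. The germ cell cyclins Ccna1 and Ccnb3 were below the filter, Ccna1 at 0.440, 0.427 and 0.407 TPM in Vehicle and 0.107, 0.113 and 0 TPM in LPS and Ccnb3 at 0.0200 TPM or less in every sample. Ccnb1ip1, whose product is a meiotic ubiquitin ligase, was at 0.163 TPM or less in every sample.

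The promoter windows of Ccnb1 and Cdk1 are shown because both genes were lower and both are textbook targets of shared cell cycle elements. The CCAAT box is bound by NF-Y. The cell cycle genes homology region (CHR), searched as TTTGAA, is a site of the DREAM and MuvB complexes. E2F factors have several forms of site, of which TTTCGCGC was searched. Windows are from RefSeq on GRCr8, the 250 bases before the annotated start, 5′ to 3′ (the files use Rnor_6.0, so these coordinates are not those of the files), at chr2:33655226-33655475 (minus strand) for Ccnb1 and chr20:19265043-19265292 (plus strand) for Cdk1. Capitals mark matches to the 3 motifs on either strand, with a CCAAT box of the opposite strand printed as ATTGG, and no matches overlap in these windows. A match is a description of the letters and not evidence of binding.
Ccnb1: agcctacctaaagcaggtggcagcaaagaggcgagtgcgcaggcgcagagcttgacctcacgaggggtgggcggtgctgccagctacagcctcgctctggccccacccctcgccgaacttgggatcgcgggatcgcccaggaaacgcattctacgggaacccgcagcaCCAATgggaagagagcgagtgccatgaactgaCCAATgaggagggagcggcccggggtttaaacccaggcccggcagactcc
Cdk1: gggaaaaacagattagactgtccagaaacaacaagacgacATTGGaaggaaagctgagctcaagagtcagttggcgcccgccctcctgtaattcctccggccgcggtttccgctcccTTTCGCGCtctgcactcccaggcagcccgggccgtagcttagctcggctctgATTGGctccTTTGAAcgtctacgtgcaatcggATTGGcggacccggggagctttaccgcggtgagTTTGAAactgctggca

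Ccnb1 has CCAAT from 82 to 78 and from 50 to 46 bases before the start. Its window has no match to the CHR or E2F letters, and other forms of those elements were not searched. Cdk1 has CCAAT on the opposite strand from 210 to 206, from 81 to 77 and from 49 to 45 bases before the start, the CHR letters from 72 to 67 and from 16 to 11, and the E2F letters from 133 to 126. Of all 33469 windows 34.02% hold the CCAAT box, 16.2% the CHR letters and 0.248% the E2F letters. Windows were found for 30 of the 39 members, 34 windows in all because some genes have more than 1, and 14 of the 34 hold a CCAAT box, 3 the CHR letters and 1 the E2F letters. Members without a window were Ccna2, Ccnd1, Ccnd2, Ccne2, Cdk6, Cdk9, Cdk13, Cdk17 and Cdkn1c.

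Of the kinases of G1 and S phase, Cdk2 and Cdk4 fell and Cdk6 was not called. Cdk2, the partner of cyclins E and A, stood at 25.2, 22.3 and 26.8 TPM in Vehicle and 16.5, 10.2 and 9.59 TPM in LPS and fell by 1.01 in log2 units (SE 0.221, adjusted p = 0.0225 by limma), with no overlap. Cdk4 was at 199.6, 184 and 190.4 TPM in Vehicle and 159.96, 97.3 and 116 TPM in LPS and fell by 0.65 in log2 units (SE 0.170, adjusted p = 0.0345 by limma), with LPS 1 the closest to Vehicle. Neither was called under scaling, where median-ratio values were -0.63 (limma adjusted p = 0.0626) for Cdk2 and -0.24 (limma adjusted p = 0.249) for Cdk4, and quantile values -0.66 (limma adjusted p = 0.0571) and -0.59 (limma adjusted p = 0.0642). Cdk6, which shares the D-type cyclins with Cdk4, was not called, at 15.5, 17.5 and 12.1 TPM in Vehicle and 13.4, 19.5 and 25.9 TPM in LPS. Its groups overlapped, LPS 2 and LPS 3 were above the Vehicle range and LPS 1 was within it, and its log2 change was 0.33 (log2, SE 0.269, limma adjusted p = 0.345). Cdk6 thus made up 7.23%, 8.697% and 5.99% in Vehicle 1, 2 and 3 and 7.71%, 16.7% and 18.3% in LPS 1, 2 and 3 of the sum of Cdk4 and Cdk6, with LPS 1 inside the Vehicle range.

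**Figure D4:**
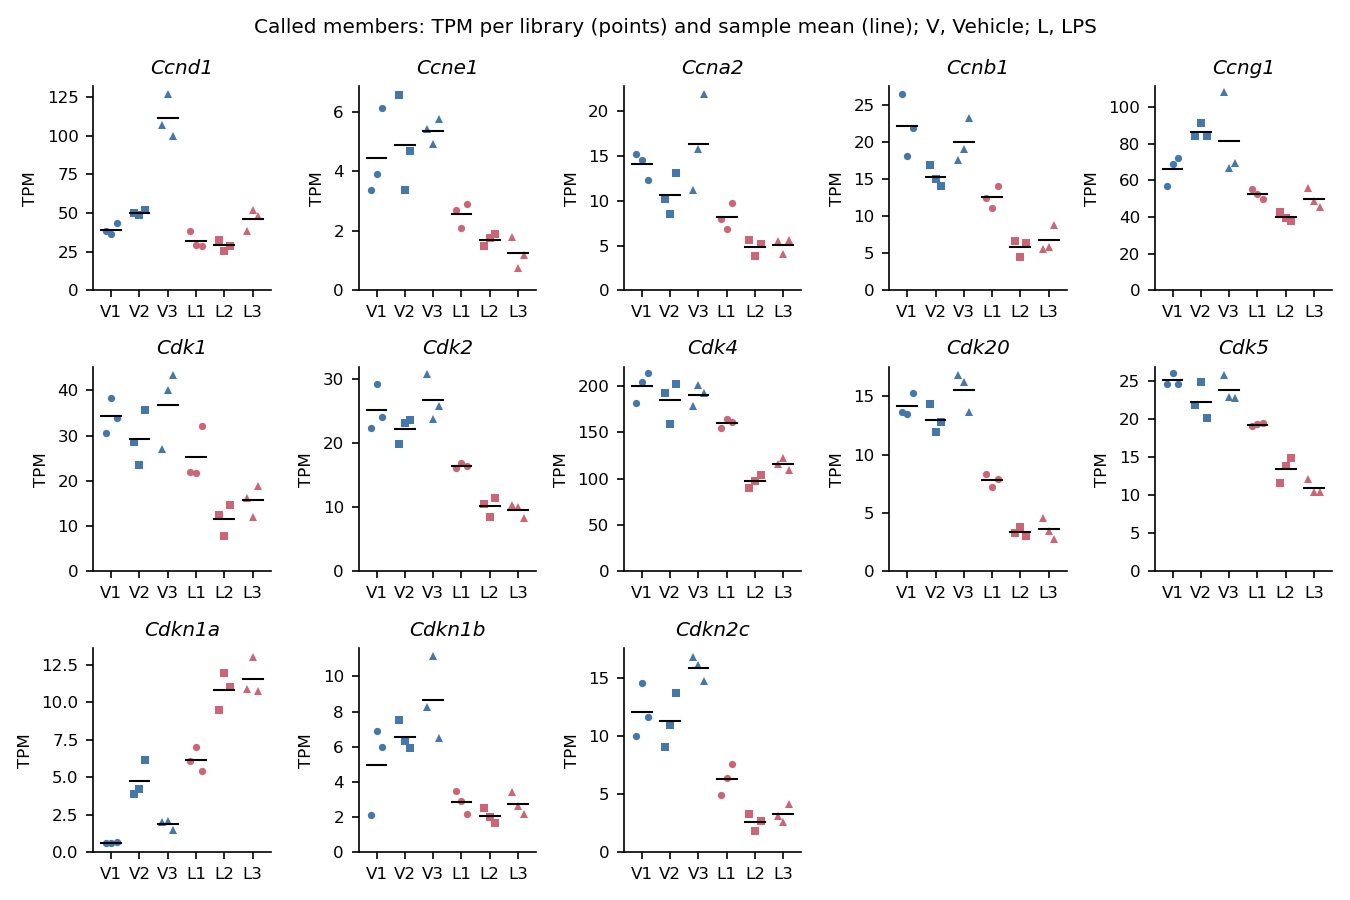
TPM (vertical, linear axes from 0) of the 13 called members in each library (points) with the sample mean (line); V1 to V3 are Vehicle samples and L1 to L3 LPS samples. By sample mean, Cdkn1a is higher in LPS and the other 12 lower, and LPS 1 lies between Vehicle and the other LPS samples in 12 of the 13 panels. Ccnd1 is the panel in which the sample means of the groups overlap. Single libraries overlap in further panels, such as Cdk1 (lowest Vehicle library 23.4 TPM, highest LPS library 32.0 TPM). For Cdkn1a the highest Vehicle library was at 6.19 TPM and the lowest LPS library at 5.41 TPM.

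D-type and E-type cyclins respond to growth signals and drive entry into S phase. Of their 5 tested genes 2 were called lower (40%), against 22.2% of all tested genes. Ccnd1 stood at 39.2, 50.3 and 111 TPM in Vehicle 1, 2 and 3 and 32.2, 29.1 and 46.1 TPM in LPS 1, 2 and 3. Vehicle 3 was far above the other Vehicle samples, and LPS 3 was above Vehicle 1, so the groups overlapped. Within pairs the log2 changes were -0.28, -0.77 and -1.26, and the blocked fit gave a fall of 0.77 (log2, SE 0.222, limma adjusted p = 0.0419). Without the replicate block Ccnd1 was not called (limma adjusted p = 0.133), nor was it without the 3 libraries that stood apart by their markers (limma adjusted p = 0.0624) or under scaling, at -0.37 (limma adjusted p = 0.160) and -0.57 (limma adjusted p = 0.114). Ccnd3, the most abundant D-type cyclin in 5 of the 6 samples, was at 92.4, 102 and 105 TPM in Vehicle and 99.5, 61.9 and 76.6 TPM in LPS, with a log2 change of -0.35 (log2, SE 0.199, limma adjusted p = 0.195) that turned to 0.050 with median-ratio scaling. Ccnd2 was low, at 2.23, 1.22 and 3.23 TPM in Vehicle and 3.18, 4.14 and 3.39 TPM in LPS, with overlapping groups and a log2 change of 0.54 (log2, SE 0.291, limma adjusted p = 0.181). Summed D-type cyclin TPM was 169 ± 44.7 in Vehicle and 119 ± 20.9 in LPS (SD, n = 3), and the samples overlapped.

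Of the E-type cyclins, Ccne1 had lower values in every LPS sample than in any Vehicle sample, as had 47.1% of all tested genes. Ccne1 was at 4.46, 4.88 and 5.36 TPM in Vehicle and 2.57, 1.71 and 1.25 TPM in LPS and fell by 1.07 in log2 units (SE 0.268, adjusted p = 0.0304 by limma), with -0.78 (limma adjusted p = 0.0751) under median-ratio scaling and -0.69 (limma adjusted p = 0.0806) under quantile normalization. Ccne2 was at 1.63, 1.41 and 2.56 TPM in Vehicle and 0.793, 0.557 and 0.393 TPM in LPS. It was under 1 TPM in every LPS sample and passed the filter through Vehicle alone. Ccne2 was not called, and its test is not given.

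The atypical G cyclins were among the more abundant members. Ccng1, whose product recruits protein phosphatase 2A, stood at 65.95, 86.6 and 81.3 TPM in Vehicle and 52.5, 40.2 and 49.9 TPM in LPS, did not overlap between groups and fell by 0.69 in log2 units (SE 0.199, adjusted p = 0.0419 by limma). It was not called with median-ratio scaling, at -0.29 (limma adjusted p = 0.262), with quantile normalization, at -0.52 (limma adjusted p = 0.108), or without the libraries that stood apart (limma adjusted p = 0.0580). Ccng2, a FoxO target linked to cell cycle exit, was at 70.4, 62.8 and 81.96 TPM in Vehicle and 57.1, 58.3 and 58.7 TPM in LPS and was not called, with a log2 change of -0.29 (log2, SE 0.167, limma adjusted p = 0.207) that became 0.11 with median-ratio scaling.

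None of the 7 tested members that act on RNA polymerase II was called by limma. At an unadjusted p under 0.05, 1 of the 5 kinases and 0 of the 2 cyclins were lower and 0 were higher, against 37.8% of all tested genes lower and 9.49% higher. Cdk9, the catalytic subunit of the elongation factor P-TEFb, stood at 92.8, 94.9 and 101 TPM in Vehicle and 83.7, 86.8 and 75.3 TPM in LPS, lower in each LPS sample, with a log2 change of -0.23 (log2, SE 0.160, limma adjusted p = 0.287) that became 0.18 with median-ratio scaling. Its cyclins Ccnt2 and Ccnt1 differed in level. Ccnt2 was at 22.5, 26.6 and 31.4 TPM in Vehicle and 18.04, 21.4 and 18.8 TPM in LPS, with a log2 change of -0.45 (log2, SE 0.191, limma adjusted p = 0.109), while Ccnt1 was between 0.940 and 2.08 TPM in every sample, with a log2 change of -0.060. Cdk7, the kinase of TFIIH that also activates other CDKs, was at 47.8, 47.7 and 48.4 TPM in Vehicle and 38.5, 31.5 and 30.003 TPM in LPS. All LPS samples were lower, as for 47.1% of all tested genes, and the log2 change of -0.52 (log2, SE 0.176, limma adjusted p = 0.0623) missed the threshold. The change of Cdk7 was -0.12 (limma adjusted p = 0.459) with median-ratio scaling and -0.27 (limma adjusted p = 0.170) with quantile normalization. Cdk12, Cdk13 and Cdk19 had log2 changes of 0.0078, -0.16 and -0.12, with overlapping groups. Under median-ratio scaling Cdk13 and Cdk19 turned to 0.21 and 0.21 and Ccnt1 to 0.197.

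Among Cdk5 and the less studied kinases, 2 of 7 tested members were called lower (28.6%), near the 22.2% of all tested genes. Cdk20, a kinase related to Cdk7 and linked to cilia, stood at 14.1, 13.0 and 15.6 TPM in Vehicle 1, 2 and 3 and 7.81, 3.36 and 3.62 TPM in LPS 1, 2 and 3. Every LPS sample was lower than every Vehicle sample, and LPS 1 was the highest of the LPS group. The gene fell by 1.44 in log2 units (SE 0.265, adjusted p = 0.0147 by limma), and was called with median-ratio scaling at -1.09 (limma adjusted p = 0.0447) and with quantile normalization at -1.05 (limma adjusted p = 0.0441). Cdk5, a kinase that uses non-cyclin partners and is best known from neurons, was at 25.1, 22.3 and 23.8 TPM in Vehicle and 19.2, 13.4 and 10.96 TPM in LPS and fell by 0.704 in log2 units (SE 0.209, adjusted p = 0.0447 by limma). Its call was lost with either scaling, at -0.32 (limma adjusted p = 0.160) and -0.36 (limma adjusted p = 0.135), and without the libraries that stood apart (limma adjusted p = 0.0665).

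Cdk16, Cdk17 and Cdk18 form the PCTAIRE subfamily of kinases, and none of them was called in the deposited TPM. Cdk16 was at 78.6, 84.2 and 93.9 TPM in Vehicle and 78.1, 66.1 and 70.4 TPM in LPS, with a log2 change of -0.26 (log2, SE 0.167, limma adjusted p = 0.252) that became 0.15 with median-ratio scaling. Cdk17 was at 18.2, 16.3 and 18.8 TPM in Vehicle and 26.5, 22.2 and 21.5 TPM in LPS, with every LPS sample above every Vehicle sample. Its log2 change of 0.38 (log2, SE 0.185, limma adjusted p = 0.148) missed the threshold, and it was called with median-ratio scaling, at 0.76 (limma adjusted p = 0.0342), and with quantile normalization, at 0.71 (limma adjusted p = 0.0349). Cdk17 made up 17.8%, 15.3% and 15.9% in Vehicle 1, 2 and 3 and 24.1%, 24.6% and 22.9% in LPS 1, 2 and 3 of the subfamily's TPM, without overlap. Cdk18 had a log2 change of -0.71 (log2, SE 0.289, limma adjusted p = 0.0954). Cdk14, a kinase of Wnt signalling, was at 22.9, 29.1 and 24.6 TPM in Vehicle and 18.4, 15.6 and 15.8 TPM in LPS, without overlap and with a log2 change of -0.59 (log2, SE 0.197, limma adjusted p = 0.0609). Cdk10 had a log2 change of -0.54 (log2, SE 0.182, limma adjusted p = 0.0615), also without overlap, and Cdk15 was at 0.0333 TPM or less in every sample. With median-ratio scaling Cdk18 was at -0.401 (limma adjusted p = 0.293), Cdk14 at -0.199 (limma adjusted p = 0.362) and Cdk10 at -0.156 (limma adjusted p = 0.438). Of all tested genes 47.1% were lower without overlap.

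The remaining tested members, taken in by their symbols, were not called. Cdkn2aip, which encodes an ARF binding protein, was at 33.01, 28.2 and 37.2 TPM in Vehicle and 33.3, 46.7 and 43.9 TPM in LPS, with a log2 change of 0.32 (log2, SE 0.200, limma adjusted p = 0.241). LPS 2 and LPS 3 were above its Vehicle range and LPS 1 was within it. The related Cdkn2aipnl was at 54.5, 52.9 and 53.6 TPM in Vehicle and 46.96, 41.1 and 42.6 TPM in LPS, with a log2 change of -0.296 (log2, SE 0.164, limma adjusted p = 0.189) that became 0.103 with median-ratio scaling.

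LPS 1 was the sample closest to Vehicle for most of these genes. For 12 of the 13 called members its value lay between all Vehicle samples and both other LPS samples, and the same held for 83.9% of the 3646 genes called over the whole table. With replicate 1 left out 1 member was called higher and 16 lower, and the 13 called members kept their call. Without the 3 libraries that stood apart (Vehicle 1 library 1, LPS 2 library 1 and LPS 3 library 3, each with 1 summed marker list of at least 200 TPM and over 2 times that of every other library), 1 member was higher and 9 were lower.

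Other genes of the same machinery were taken from lists, and read against 22.2% of all tested genes called lower and 7.17% higher and a median log2 change of -0.38. At an unadjusted p under 0.05 the shares of all tested genes were 37.8% lower and 9.49% higher. Cables1, E2f2, Cdc6, Cdt1 and Bub1b, counted as lower in these lists, averaged under 1 TPM with LPS and passed the filter through Vehicle alone. The lists of mitosis and DNA replication had the largest shares of lower genes. Of the mitosis list there were 12 of 23 tested genes lower and 0 higher (0 higher by limma at an unadjusted p under 0.05), with a median log2 change of -0.88, and 3 lower and 0 higher after median-ratio scaling, or 3 lower and 0 higher after quantile normalization. Kif20a, a kinesin of cytokinesis, had a Vehicle mean of 15.1 ± 1.16 TPM against 4.38 ± 2.99 TPM with LPS (SD, n = 3) and fell by 1.74 in log2 units (SE 0.287, adjusted p = 0.0107 by limma). Ckap2 and Prc1, which encode spindle proteins, fell by 1.46 and 1.19 on the log2 scale. These 3 genes kept their call under both scalings. Mki67, the usual marker of cycling cells, was low and not called, with a Vehicle mean of 2.62 ± 0.590 TPM against 1.63 ± 0.377 TPM with LPS. Of the replication list there were 12 of 22 tested genes lower and 0 higher (0 higher by limma at an unadjusted p under 0.05), with a median log2 change of -0.78, and 1 lower and 0 higher after median-ratio scaling, or 2 lower and 0 higher after quantile normalization. Rrm2, a ribonucleotide reductase subunit gene, had a Vehicle mean of 14.95 ± 4.27 TPM against 4.097 ± 2.27 TPM with LPS and fell by 1.74 in log2 units (SE 0.328, adjusted p = 0.0155 by limma). Mcm6, of the replicative helicase, and Tyms, the thymidylate synthase gene, fell by 1.399 and 1.06. With median-ratio scaling these 3 were not called, at -1.401 (limma adjusted p = 0.0516), -1.02 (limma adjusted p = 0.0558) and -0.66 (limma adjusted p = 0.0638); with quantile normalization Tyms was called, at -0.86 (limma adjusted p = 0.0452).

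The Rb, E2F and DREAM list had 5 of 15 tested genes lower and 0 higher (2 higher by limma at an unadjusted p under 0.05), with a median log2 change of -0.65, and 2 lower and 2 higher after median-ratio scaling, or 1 lower and 2 higher after quantile normalization. Rbl2, the retinoblastoma relative p130 of resting cells, had a Vehicle mean of 21.3 ± 3.003 TPM against 8.51 ± 2.88 TPM with LPS and fell by 1.26 in log2 units (SE 0.242, adjusted p = 0.0163 by limma). Lin52, a MuvB subunit gene, fell by 0.99. E2f2, which passed the filter through Vehicle alone, had a Vehicle mean of 3.42 ± 0.367 TPM against 0.742 ± 0.309 TPM with LPS. Rbl2 was called under both scalings and Lin52 under neither. Of the list of CDK phosphorylation and degradation there were 3 of 17 tested genes lower and 0 higher (0 higher by limma at an unadjusted p under 0.05), with a median log2 change of -0.49. Cdc20, the activator of the anaphase-promoting complex that destroys cyclin B, had a Vehicle mean of 26.4 ± 3.2002 TPM against 7.91 ± 5.43 TPM with LPS and fell by 1.81 in log2 units (SE 0.336, adjusted p = 0.0151 by limma), but was not called with median-ratio scaling, at -1.44 (limma adjusted p = 0.0564), or quantile normalization, at -1.45 (limma adjusted p = 0.0507). Fzr1 and Cul4a fell by 0.83 and 0.55 and were called under neither scaling, so no call in this list held under either.

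Among partners of CDKs outside the naming rule, Ccnh and Cks2 rose. The list had 6 of 23 tested genes lower and 2 higher, with a median log2 change of -0.41, and 2 lower and 2 higher after median-ratio scaling, or 2 lower and 2 higher after quantile normalization. Ccnh, the cyclin of Cdk7, stood at 48.3, 41.7 and 44.97 TPM in Vehicle and 76.2, 138 and 112 TPM in LPS, above Vehicle in every LPS sample, and rose by 1.22 in log2 units (SE 0.228, adjusted p = 0.0154 by limma), while Cdk7 itself was lower in every LPS sample without a call. Cks2, a small CDK-binding subunit, had a Vehicle mean of 18.9 ± 2.46 TPM against 45.99 ± 5.397 TPM with LPS and rose by 1.28 in log2 units (SE 0.194, adjusted p = 0.00800 by limma). Cdkl1, a cyclin-dependent kinase-like gene more abundant in Vehicle than any member, had a Vehicle mean of 415 ± 22.5 TPM against 177 ± 77.3 TPM with LPS and fell by 1.304 in log2 units (SE 0.207, adjusted p = 0.00943 by limma). Ccnh, Cks2 and Cdkl1 were called under both scalings. Ccnc had a Vehicle mean of 18.6 ± 2.11 TPM against 11.4 ± 0.494 TPM with LPS. It fell by 0.65 in log2 units (SE 0.194, adjusted p = 0.0448 by limma). Ccnc was not called with median-ratio scaling, at -0.27 (limma adjusted p = 0.237), or with quantile normalization, at -0.297 (limma adjusted p = 0.195). The symbol Cdkl3 had 2 rows, 1 of them tested.

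Of the mitogenic and antiproliferative regulators there were 5 of 22 tested genes lower and 4 higher, with a median log2 change of -0.37, and 1 lower and 2 higher after median-ratio scaling, or 2 lower and 2 higher after quantile normalization. Tob1 and Btg1 belong to the same antiproliferative family and were called in opposite directions, with a Vehicle mean of 29.2 ± 1.92 TPM against 4.801 ± 1.71 TPM with LPS for Tob1 and a Vehicle mean of 567 ± 29.5 TPM against 1179.7 ± 131 TPM with LPS for Btg1. Tob1 fell by 2.35 in log2 units (SE 0.240, adjusted p = 0.00204 by limma), and Btg1 rose by 1.06 in log2 units (SE 0.126, adjusted p = 0.00359 by limma), both called under both scalings. Mxd4, an antagonist of Myc, fell by 1.66, and was called with quantile normalization, at -1.53 (limma adjusted p = 0.0496), but not with median-ratio scaling, at -1.25 (limma adjusted p = 0.0624). Myc, a driver of growth and proliferation, stood at 0.970, 0.543 and 0.590 TPM in Vehicle and 2.39, 34.5 and 25.2 TPM in LPS. It was under 1 TPM in every Vehicle sample and passed the filter through LPS alone, so it had to differ to be among the genes tested. It is 1 of the 4 higher genes of this list, and its test is not given.

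Around the transcription CDKs, the P-TEFb and elongation list had 7 of 17 tested genes lower and 0 higher (1 higher by limma at an unadjusted p under 0.05), with a median log2 change of -0.37, and 0 lower and 1 higher after median-ratio scaling, or 0 lower and 1 higher after quantile normalization. Hexim1, which holds Cdk9 inactive, had a Vehicle mean of 30.4 ± 7.18 TPM against 10.96 ± 3.37 TPM with LPS and fell by 1.41 in log2 units (SE 0.282, adjusted p = 0.0179 by limma), and its relative Hexim2 fell by 1.26. Supt5h, an elongation factor phosphorylated by Cdk9, fell by 0.71. None of these 3 was called under scaling, with median-ratio values of -1.03 (limma adjusted p = 0.0578), -0.92 (limma adjusted p = 0.0665) and -0.31 (limma adjusted p = 0.167). The 4 genes listed for the Mediator kinase module around Cdk19 were not called by limma (2 lower and 0 higher at an unadjusted p under 0.05). Med12l was at -0.74, Med12 at -0.59 and Med13l at 0.54 (log2). Med12l averaged 0.900 TPM with LPS against 2.17 TPM in Vehicle, so it passed the filter through Vehicle alone. Ccnc is not among these 4 genes, and it was called lower with the other partners above.

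**Figure D5:**
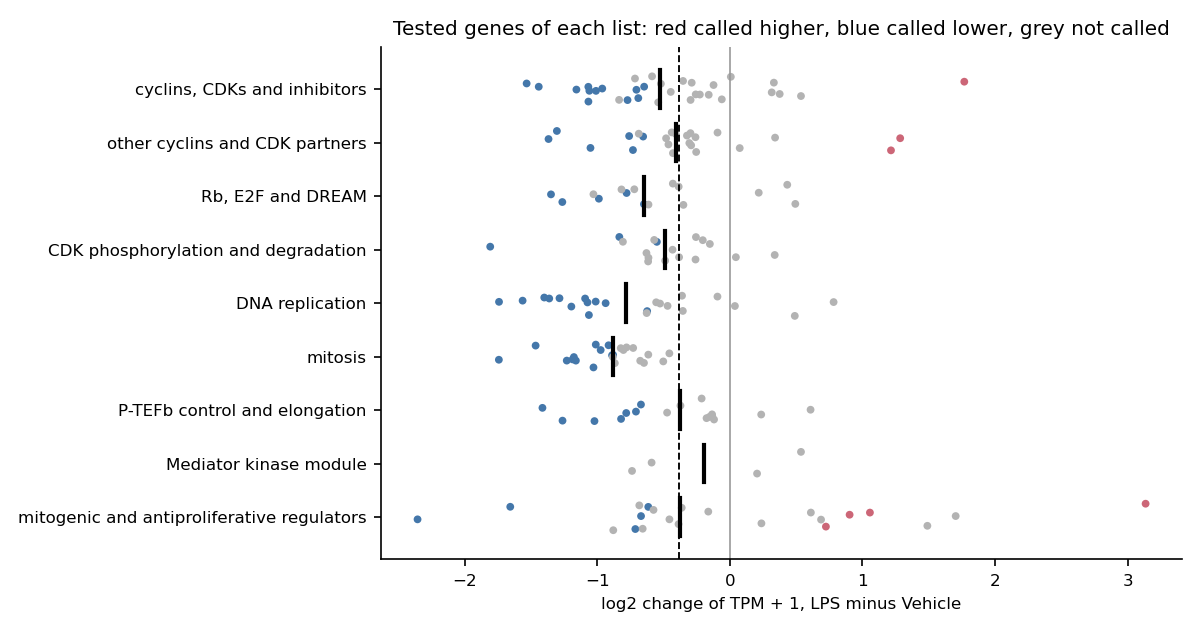
Log2 change of TPM + 1, LPS minus Vehicle (horizontal), of each tested gene of the members and of 8 lists of related genes (rows); thick bars are list medians, the dashed line the median of all tested genes, and vertical scatter within a row carries no value. The medians of mitosis (-0.88) and DNA replication (-0.78) lie farthest to the left.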

How the data were processed

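The authors deposited 1 table of TPM (transcript abundance corrected for length and brought to the same total in every library) with 1 column for each of 18 libraries. STAR 2.7.9a, RSEM 1.3.3 and the build Rnor_6.0 are named in the submitters' processing notes. No source used here gives the annotation release or a filter. RSEM shares reads between similar transcripts by estimate, so close paralogs are uncertain. Columns beginning with N were read as normal saline and with L as LPS; 0 columns belonged to other samples and 0 libraries were identical.

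Each numbered sample was the mean of log2(TPM + 1) in its 3 libraries. Testing took in 12393 of 32883 genes, those averaging 1 TPM or more, with limma 3.58.1 in R 4.3.3 (two-sided, moderated with a variance trend, p-values adjusted by Benjamini-Hochberg over all tested genes), and the sample number entered as a block, following the pairing stated in the labels' protocol. Same-numbered samples had correlations of 0.0622, -0.0175 and 0.0686 in their deviations from group means across genes, so the pairing rests on that statement. The pseudocount makes fold changes of low genes too small. A gene near 0 in 1 group passes the filter only through the other. The code was tested on simulated data.

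The members, roles and lists were chosen with earlier results of these data known. Values in every sample are given for called members and for members of at least 20 TPM in either group. They are also given for the main G1 genes and Cip/Kip inhibitors. From each list the genes with the smallest p are named. Myc, Mki67, Ccnc and the library minima of Top2a were added after their values were seen. List genes with no row of that symbol were not analysed here, and 1 list is not reported here. Promoter windows come from RefSeq (GRCr8), matched by symbol. Alternatives were the fit without the block, other summaries over libraries, pseudocounts, filters, scalings, and variance models, and omission of each replicate in turn. The one without libraries that stood apart was chosen after seeing the data.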

Additional observations from a re-analysis of the deposited data

How the results depend on the processing

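Of all tested genes 889 were higher and 2757 lower, and of the members 1 and 12. Without the replicate block the counts were 912 and 3624, and 1 and 15 members, with Ccnd1 losing its call. With all 18 libraries, an estimated correlation within a sample and the replicate block they were 1189 and 5295, and 1 and 21 members. With the median of the libraries they were 0 and 0 (1019 and 4167 unadjusted by limma), and 0 and 0 members. Without a filter they were 18 and 2, and 0 and 0 members. Median-ratio scaling gave 821 and 460, with 2 and 3 members, and quantile normalization 809 and 579, with 2 and 3 members. Leaving out each replicate gave 0 to 1004 higher and 0 to 3595 lower genes, 0 to 1 higher and 0 to 16 lower members; the 0 was without replicate 3 (738 and 1463 unadjusted by limma), and without replicate 2 genes numbered 419 and 296. Without the libraries that stood apart there were 612 and 1131 genes and 1 and 9 members. The cause of these differences was not tested.

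No called member changed direction under any of the 15 alternatives in which it was tested. Among members not called, median-ratio scaling turned Ccnd3 to 0.050, Ccng2 to 0.11, Ccnt1 to 0.197, Cdk13 to 0.21, Cdk19 to 0.21, Cdk9 to 0.18, Cdk16 to 0.15 and Cdkn2aipnl to 0.103 (log2). Quantile normalization turned Ccnt1 to 0.28, Cdk13 to 0.23 and Cdk19 to 0.28. Without the libraries that stood apart Ccnt1 was 0.019 and Cdk12 -0.057. Over the fits that leave out a replicate Ccnt1 ran from -0.12 to 0.040, Cdk6 from -0.023 to 0.6004 and Cdk12 from -0.083 to 0.062. Depth is unknown, so values near 1 TPM carry no counting interval.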
